A study of Homo sapiens with 16 samples.

Results

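TGF-beta signalling in these data was followed through 10 genes, chosen by symbol from the count table as the pathway's ligands, receptors, SMAD proteins and well-known targets. All 10 were among the 59428 genes of the table: TGFB1, TGFB2, TGFBR1, TGFBR2, SMAD2, SMAD3, SMAD7, TGFBI, PMEPA1 and SKIL. RNA was measured in ovarian carcinoma cell lines, OVCAR3 with intact BRCA1 and UWB1.289 with a deleterious BRCA1 mutation. Each line was treated for 96 h with the PARP inhibitor olaparib at the IC50 determined for that line, which was 7.5 µM for OVCAR3 and 3.5 µM for UWB1.289, or with the vehicle DMSO. The 4 groups of 4 libraries gave 16 libraries, sequenced from the 3′ ends of mRNA. OVCAR3 was grown in RPMI1640 with insulin and a high share of serum and UWB1.289 in a mixture of mammary epithelial medium and RPMI1640 with little serum, so line, BRCA1 status, medium and olaparib dose cannot be told apart in a comparison of the lines. Each BRCA1 status is represented by a single line.

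TGF-beta ligands are secreted in a latent form and are released by integrins and thrombospondin. The free ligand binds the type II receptor, which recruits and phosphorylates the type I receptor, and this kinase phosphorylates SMAD2 and SMAD3, which enter the nucleus with SMAD4 and switch on target genes. Several of the targets, such as SMAD7, SKIL and PMEPA1, act back on the pathway as inhibitors, and in ovarian carcinoma the pathway is known for its part in epithelial plasticity and immune suppression. The libraries report RNA only, not ligand release or SMAD phosphorylation.

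Total counts per library lay between 5599571 and 7730228. Levels are given as CPM, the counts scaled to a common library size after correction for composition, and no level is compared between genes. Of 8 carcinoma markers, all 8 in OVCAR3 and 7 in UWB1.289 had a mean level above 1 CPM. WT1 was nearly absent from UWB1.289, with 0 counts in the DMSO libraries and 4 in the olaparib libraries. Of 6 fibroblast markers, 1 in OVCAR3 and 2 in UWB1.289 were above 1 CPM, with summed levels of 22.1 to 39.5 and 25.1 to 61.1 CPM. The 4 leukocyte markers summed to at most 0.809 CPM in OVCAR3 and to 5.68 to 13.6 CPM in UWB1.289, where PTPRC was the leading gene. The 3 endothelial markers summed to 0.324 to 2.67 and 5.30 to 10.1 CPM. Whether these markers had a part in the differences between the lines was not tested.

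The question of the first comparison was which of the 10 genes responded to olaparib in OVCAR3. PMEPA1, SMAD3, SMAD7 and TGFBI rose more than 2-fold, SKIL rose less, and SMAD2 fell. The ligands TGFB1 and TGFB2 and both receptors did not pass the test. A gene passed the test at an adjusted p below 0.1 over all genes tested with edgeR, and it was called when it also changed more than 2-fold with an average normalised count above 10. By this rule 5 of the 10 genes passed upward, where 15.5% of all 13031 genes tested did, and 1 passed downward, where 16% did. Together 6 passed, against 31.6% of all genes, and 4 were called, against 5.23%. The 10 genes were chosen with earlier results of these data known, so these shares are no independent test of them. In 6 genes the olaparib and DMSO libraries did not overlap, against 25.4% of all genes. The median log2 fold change was 0.48 over the 10 genes and -0.01 over all genes tested. In these bulk libraries fewer cells of a kind and less RNA per cell cannot be told apart, and since no source states that replicates were separate cultures, p-values measure only the spread between these samples.

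**Figure D1:**
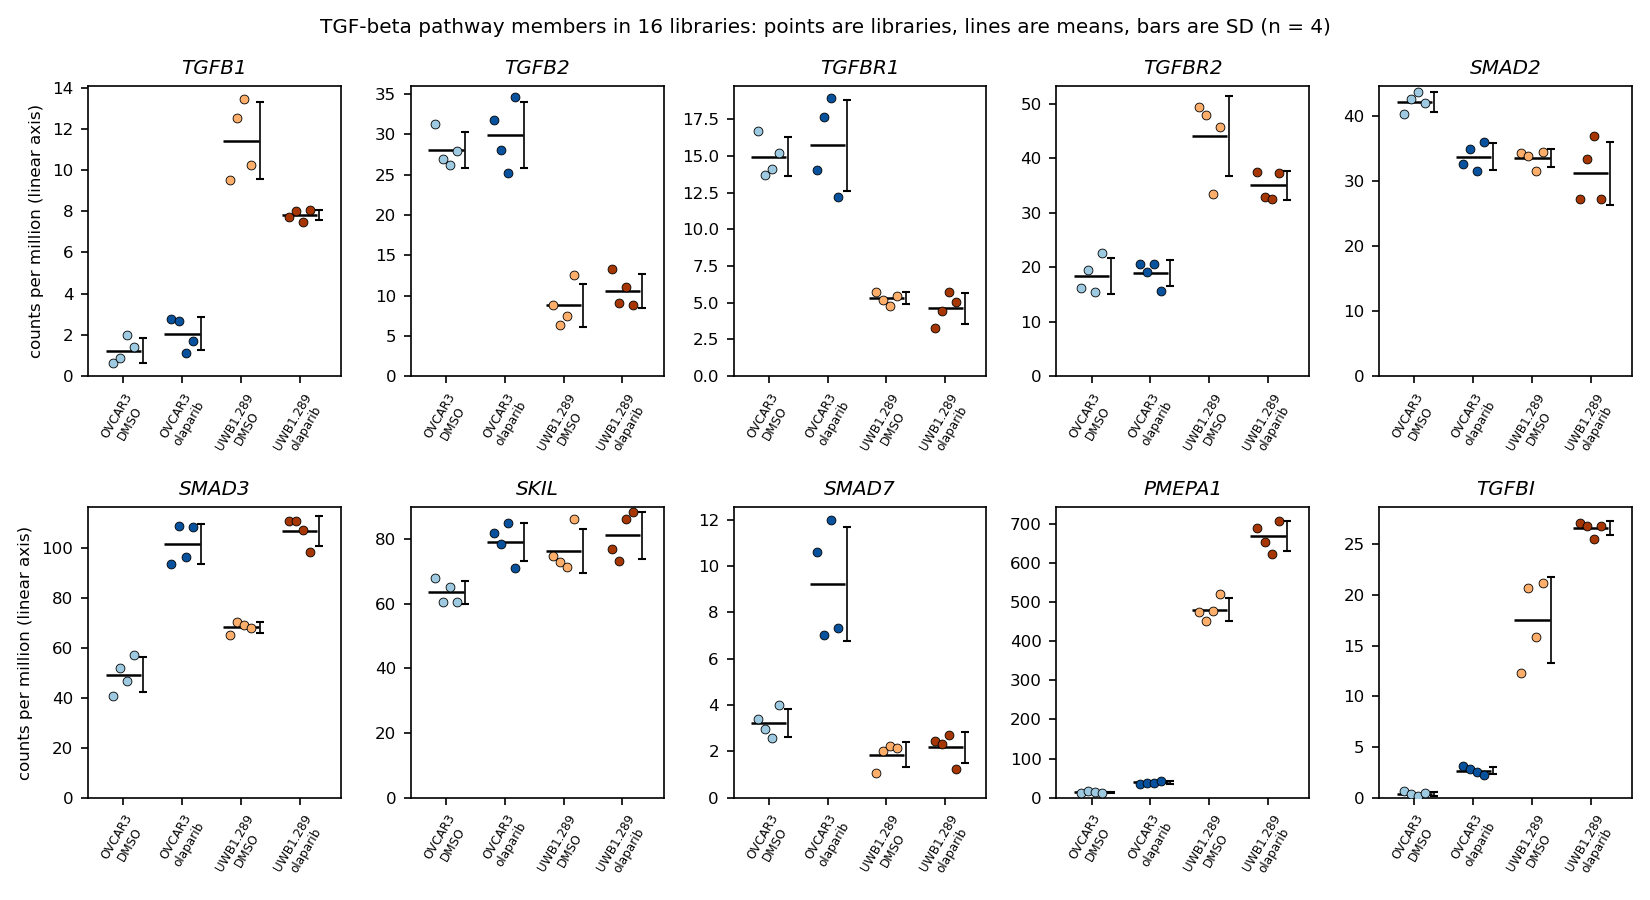
Level in CPM of each of the 10 genes (linear vertical axes starting at 0) in the 16 libraries, with points for libraries, lines for group means and bars for the SD (n = 4). PMEPA1, TGFBI and SMAD3 lie higher with olaparib than with DMSO in both lines without overlap, while the SMAD7 groups are apart in OVCAR3, at 7.02 to 12.0 CPM against 2.57 to 3.99 CPM, and overlap in UWB1.289.

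PMEPA1, a membrane protein that binds SMAD2 and SMAD3 and limits the signal, lies on chromosome 20, positions 57648392 to 57711536 (GRCh38, reverse strand). In OVCAR3 it measured 12.6, 15.97, 13.7 and 10.7 CPM with DMSO and 36.0, 37.9, 38.7 and 43.3 CPM with olaparib. Every olaparib library was above every DMSO library. The group means were 13.2 ± 2.21 and 39.0 ± 3.08 CPM (SD, n = 4), and the log2 fold change was 1.54 (SE 0.132, adjusted p = 1.21e-09).

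SMAD3, the receptor-regulated SMAD that binds DNA directly, lies on chromosome 15, positions 67063763 to 67195173, forward strand. Its levels were 40.8, 52.1, 46.6 and 57.1 CPM with DMSO and 93.3, 108.6, 96.2 and 108.4 CPM with olaparib in OVCAR3. The groups did not overlap, and the log2 fold change of 1.02 (SE 0.0973, adjusted p = 7.46e-09) was just past the 2-fold limit. Without OVCAR3 DMSO replicate 1 or OVCAR3 olaparib replicate 2 it was 0.95 or 0.99, still past the test. SMAD2, its close relative, lies on chromosome 18, positions 47808957 to 47931146, reverse strand. It measured 40.3, 42.7, 43.8 and 42.0 CPM with DMSO and 32.7, 35.0, 31.5 and 36.0 CPM with olaparib. All 4 olaparib libraries were below all 4 DMSO libraries, a small fall (log2 fold change -0.34, SE 0.102, adjusted p = 0.0142). The SMADs that carry the signal from the receptors thus moved in opposite directions in OVCAR3.

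SMAD7, the inhibitory SMAD that blocks the type I receptor and draws ubiquitin ligases to it, lies on chromosome 18, positions 48919853 to 48950965, reverse strand. In OVCAR3 it was read with 21, 17, 18 and 28 counts with DMSO and 69, 45, 84 and 52 counts with olaparib. These counts correspond to means of 3.23 ± 0.610 and 9.24 ± 2.46 CPM (SD, n = 4). The groups did not overlap, although the olaparib libraries spread widely, and the log2 fold change was 1.49 (SE 0.247, adjusted p = 4.61e-05). SKIL, also called SnoN, a nuclear repressor of SMAD complexes, lies on chromosome 3, positions 170357342 to 170396835, forward strand. It measured 67.8, 60.6, 65.0 and 60.5 CPM with DMSO and 81.95, 78.5, 84.8 and 71.0 CPM with olaparib. The change was small but without overlap (log2 fold change 0.29, SE 0.0905, adjusted p = 0.0172).

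TGFBI, a secreted matrix protein named for its induction by TGF-beta, lies on chromosome 5, positions 136028988 to 136063818, forward strand. It was close to the detection limit in untreated OVCAR3, with 4, 2, 1 and 3 counts, and had 20, 18, 18 and 16 counts with olaparib. The olaparib libraries were all higher, and the ratio of the summed counts per depth was 6.92 (95% exact interval 3.55 to 15.0, counting error only). The fitted log2 fold change was 2.71 (SE 0.474, adjusted p = 9.24e-05). Its average normalised count of 10.1 was just inside the limit of 10, and it left the called genes, though not those past the test, when any one of the 4 OVCAR3 olaparib libraries was left out.

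The ligands and receptors showed no such shift in OVCAR3. TGFB1, the most studied ligand, on chromosome 19, positions 41301587 to 41353922 (reverse strand), had 4, 5, 14 and 10 counts with DMSO and 18, 17, 8 and 12 counts with olaparib. These counts overlap, and the log2 fold change of 0.67 had a 95% interval of -0.21 to 1.55 (adjusted p = 0.274). TGFB2, a ligand encoded on chromosome 1, positions 218345336 to 218444619 (forward strand), had means of 28.1 ± 2.21 and 29.9 ± 4.09 CPM (SD, n = 4), and the interval of its log2 fold change was -0.18 to 0.32 (adjusted p = 0.734). TGFBR1, the type I receptor kinase, lies on chromosome 9, positions 99104038 to 99154192, and TGFBR2, the ligand-binding type II receptor, on chromosome 3, positions 30606601 to 30694142, both on the forward strand. Their log2 fold changes were 0.05 (interval -0.28 to 0.38) for TGFBR1 and 0.02 (interval -0.29 to 0.33) for TGFBR2. A 2-fold change of TGFB2 or of either receptor lay outside these intervals, while for TGFB1 it did not.

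The promoters of the 4 genes called in OVCAR3 are shown because these genes moved together. The sequences come from RefSeq on GRCh38.p14, run 5′ to 3′ on the gene's strand, and hold 250 bases before the annotated start and the first 20 transcribed bases. They cover chr15:67065352-67065621 (forward strand) for SMAD3, chr18:48950946-48951215 (reverse strand) for SMAD7, chr5:136028738-136029007 (forward strand) for TGFBI and chr20:57709996-57710265 (reverse strand) for PMEPA1. Capitals mark CAGAC on either strand, a short element that SMAD3 and SMAD4 can bind.
SMAD3: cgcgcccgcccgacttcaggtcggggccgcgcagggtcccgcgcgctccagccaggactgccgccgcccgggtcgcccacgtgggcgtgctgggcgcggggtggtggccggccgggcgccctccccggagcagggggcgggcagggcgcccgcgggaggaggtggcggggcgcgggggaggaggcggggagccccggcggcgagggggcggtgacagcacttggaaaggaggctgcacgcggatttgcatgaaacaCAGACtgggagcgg
SMAD7: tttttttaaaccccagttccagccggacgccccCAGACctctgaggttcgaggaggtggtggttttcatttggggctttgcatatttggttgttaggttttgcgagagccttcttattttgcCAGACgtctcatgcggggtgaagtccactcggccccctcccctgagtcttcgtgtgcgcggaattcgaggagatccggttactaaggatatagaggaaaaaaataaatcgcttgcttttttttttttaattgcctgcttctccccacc
TGFBI: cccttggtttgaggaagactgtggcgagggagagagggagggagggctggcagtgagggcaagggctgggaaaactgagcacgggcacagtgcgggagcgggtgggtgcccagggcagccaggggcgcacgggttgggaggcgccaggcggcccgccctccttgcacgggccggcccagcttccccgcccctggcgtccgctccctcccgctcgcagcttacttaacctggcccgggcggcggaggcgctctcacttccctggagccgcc
PMEPA1: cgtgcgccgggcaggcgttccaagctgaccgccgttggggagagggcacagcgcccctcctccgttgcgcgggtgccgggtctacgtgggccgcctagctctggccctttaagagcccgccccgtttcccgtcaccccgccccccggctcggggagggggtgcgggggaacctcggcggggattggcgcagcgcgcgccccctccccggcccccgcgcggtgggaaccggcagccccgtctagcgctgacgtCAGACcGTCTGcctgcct
SMAD7 held CAGAC at 217 and 128 bases before the start, SMAD3 held it from transcribed base 7, and PMEPA1 from transcribed bases 3 and 9, the latter on the opposite strand. In windows of 300 bases, which extend to transcribed base 50, 6 of the 10 genes held CAGAC (TGFB2, TGFBR1, SMAD3, SMAD7, PMEPA1 and SKIL), as did 45.3% of 35116 annotated promoter windows. The longer palindrome GTCTAGAC was in 0 of the 10 and in 0.202% of all windows. The AP-1 element TGANTCA, searched on both strands as were the others, was in 1 of the 10, TGFBR2, at 6 bases before the start, and in 7.71% of all windows. These matches describe letters only, and binding was not measured.

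The same question was put to UWB1.289. With olaparib SMAD3, TGFBI and PMEPA1 rose, TGFB1 and TGFBR2 fell, and no gene of the 10 changed more than 2-fold. The 3 genes that rose compare with 7.91% of the 12748 genes tested that passed upward, and the 2 that fell with 6.17% that passed downward. All 5 together compare with 14.1%, the 0 called genes with 2.20%, and the 4 genes whose groups did not overlap with 14.8%. The median log2 fold change was 0.17 over the 10 genes and -0.004 over all genes. With scaling to total counts alone, the split of all genes past the test moved from 1008 up and 787 down to 1195 up and 611 down.

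SMAD3 measured 65.1, 70.3, 69.1 and 68.1 CPM with DMSO and 110.8, 110.7, 106.9 and 98.4 CPM with olaparib in UWB1.289. The groups were far apart, with a log2 fold change of 0.66 (SE 0.0861, adjusted p = 4.67e-06). PMEPA1 measured 474.9, 452.1, 477.9 and 520.7 CPM with DMSO and 690.8, 655.5, 623.9 and 707.6 CPM with olaparib. Again no library overlapped, and the log2 fold change was 0.49 (SE 0.0749, adjusted p = 5.18e-05). TGFBI measured 12.3, 20.7, 15.8 and 21.1 CPM with DMSO and 27.1, 26.8, 25.5 and 26.8 CPM with olaparib. The DMSO libraries varied more than the olaparib libraries but stayed below them (log2 fold change 0.62, SE 0.147, adjusted p = 0.00691).

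TGFB1 was lower with olaparib in UWB1.289, at 7.72, 7.996, 7.50 and 8.06 CPM against 9.54, 12.5, 13.4 and 10.2 CPM with DMSO. The groups did not overlap (log2 fold change -0.53, SE 0.181, adjusted p = 0.0657). TGFBR2 measured 49.5, 47.9, 33.4 and 45.7 CPM with DMSO and 37.4, 32.9, 32.6 and 37.3 CPM with olaparib. DMSO replicate 3 lay within the olaparib range, so the groups overlapped (log2 fold change -0.32, SE 0.120, adjusted p = 0.0976). Both falls were near the limit. They passed with the replicate number as a block (adjusted p = 0.0529 for TGFB1 and 0.0504 for TGFBR2). With DESeq2 in place of edgeR they did not pass (adjusted p = 0.110 for TGFB1 and 0.127 for TGFBR2). TGFB1 also did not pass without UWB1.289 DMSO replicate 2 or 3 or olaparib replicate 3 or 4 (adjusted p = 0.163, 0.180, 0.136 and 0.114). TGFBR2 did not pass without DMSO replicate 1, 2 or 4 or olaparib replicate 2, 3 or 4 (adjusted p = 0.270, 0.233, 0.193, 0.159, 0.222 and 0.123).

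The other genes did not pass the test in UWB1.289. SMAD7 had 7, 12, 14 and 16 counts with DMSO and 15, 13, 17 and 8 counts with olaparib, which overlap. At this depth its log2 fold change of 0.23 had a wide interval of -0.54 to 1.004 (adjusted p = 0.769). SKIL had means of 76.2 ± 6.77 and 81.1 ± 7.20 CPM (SD, n = 4), with an interval of the log2 fold change of -0.09 to 0.30. The corresponding intervals were -0.34 to 0.16 for SMAD2, -0.16 to 0.69 for TGFB2 and -0.68 to 0.32 for TGFBR1. In both lines SMAD3, TGFBI and PMEPA1 passed upward, and 0 genes passed downward in both or in opposite directions. The shares of all genes that did so are not given, so these counts are not set against a background.

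**Figure D2:**
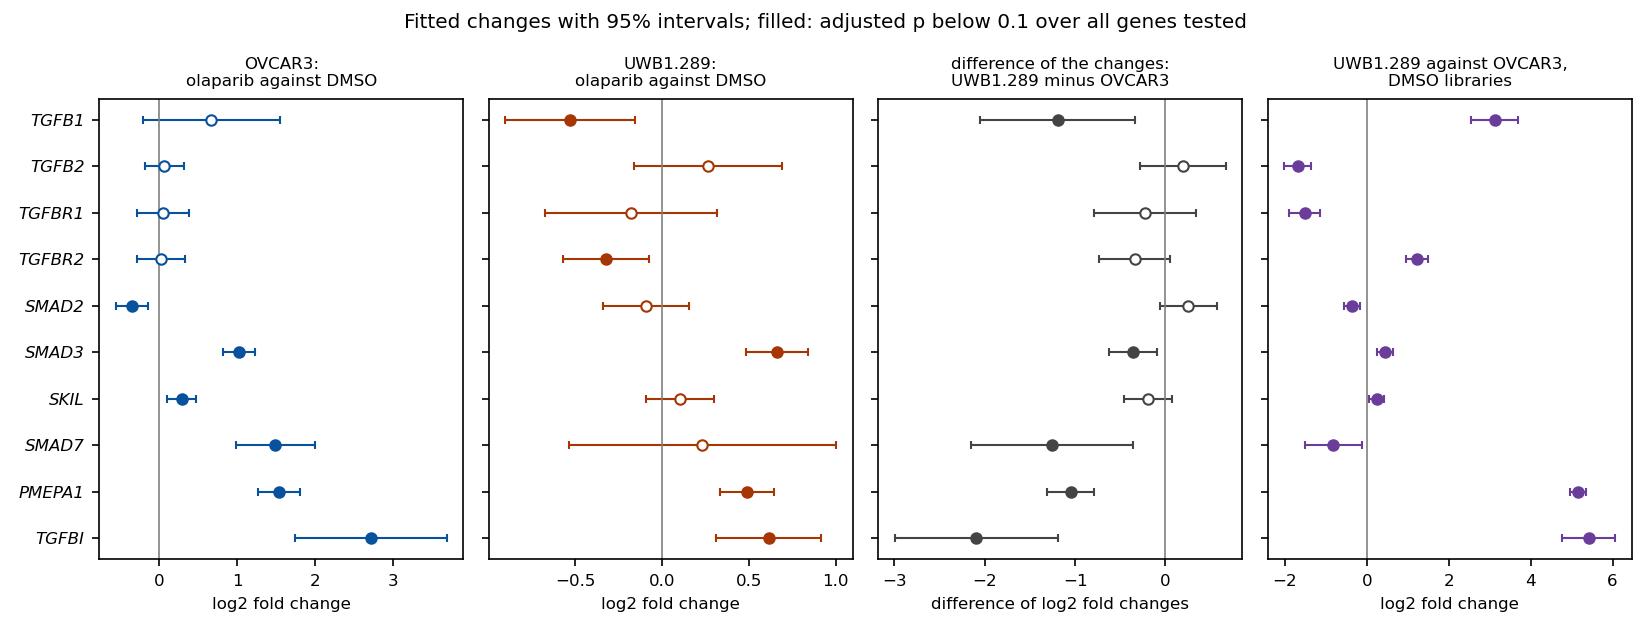
Fitted log2 fold changes with 95% intervals for the 10 genes, for olaparib against DMSO in each line, for the difference of these changes (UWB1.289 minus OVCAR3) and for the untreated lines, UWB1.289 relative to OVCAR3 (horizontal axes differ between panels). Filled points passed the test at an adjusted p below 0.1: 6 genes in OVCAR3, 5 in UWB1.289, 5 for the difference and all 10 between the lines.

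The difference of the olaparib response between the lines was tested as an interaction over all 16 libraries. Of the 10 genes, 5 passed the test with a lower log2 fold change in UWB1.289 than in OVCAR3, against 6.06% of the 14243 genes tested, and 0 passed with a higher one, against 5.12%. Without regard to the test, the log2 fold change was lower in UWB1.289 for 8 genes and higher for 2, TGFB2 and SMAD2. The 5 genes past the test compare with 11.2% in either direction, and the 4 whose difference exceeded 2-fold with 3.64%. PMEPA1 differed by -1.05 on the log2 scale (SE 0.129, adjusted p = 2.92e-07) and TGFBI by -2.09 (SE 0.444, adjusted p = 0.00159). For both genes the rise was present in each line, and its fold was larger in OVCAR3, where the starting level was lower. In CPM the gain was larger in UWB1.289. Group means of PMEPA1 went from 13.2 to 39.0 CPM in OVCAR3 and from 481 to 669 CPM in UWB1.289. Those of TGFBI went from 0.391 to 2.68 CPM in OVCAR3 and from 17.5 to 26.6 CPM in UWB1.289. Without OVCAR3 DMSO replicate 4 the PMEPA1 difference was -0.97, just under 2-fold. The TGFBI difference includes untreated OVCAR3, where 10 counts were read over 4 libraries.

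The other 3 differences were less certain. They were -1.26 for SMAD7 (SE 0.443, adjusted p = 0.0777), -1.19 for TGFB1 (SE 0.422, adjusted p = 0.0785) and -0.36 for SMAD3 (SE 0.130, adjusted p = 0.0830). For TGFB1 the adjusted p was 0.103 with the replicate number as a block. It also did not pass without UWB1.289 DMSO replicate 2 or 3, UWB1.289 olaparib replicate 3, OVCAR3 DMSO replicate 1 or 2, or OVCAR3 olaparib replicate 1 or 2, with adjusted p from 0.110 to 0.189. SMAD7 did not pass without UWB1.289 DMSO replicate 2, 3 or 4, UWB1.289 olaparib replicate 4, OVCAR3 DMSO replicate 2 or 3, or OVCAR3 olaparib replicate 1 or 3, with adjusted p from 0.110 to 0.155. SMAD3 did not pass without UWB1.289 DMSO replicate 2, 3 or 4, UWB1.289 olaparib replicate 3 or 4, OVCAR3 DMSO replicate 1 or 3, or OVCAR3 olaparib replicate 2 or 4, with adjusted p from 0.108 to 0.201. The remaining genes gave intervals of -0.28 to 0.67 for TGFB2, -0.79 to 0.33 for TGFBR1, -0.73 to 0.05 for TGFBR2, -0.06 to 0.57 for SMAD2 and -0.46 to 0.08 for SKIL.

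Without drug, the lines differed in every one of the 10 genes. UWB1.289 had more RNA of TGFB1, TGFBR2, SMAD3, TGFBI, PMEPA1 and SKIL and less of TGFB2, TGFBR1, SMAD2 and SMAD7. Differences between the lines were common: 79.9% of the 13366 genes tested passed, and 69.4% had DMSO libraries that did not overlap, so a count of 10 in 10 stands against a high background. The 6 genes that were higher compare with 39.8% and the 4 that were lower with 40.1%. Of the 10, 6 were called, against 38.4% of all genes. This comparison uses the DMSO libraries that are also the controls of the olaparib comparisons.

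The ligands and the receptors differed in opposite ways within each pair. TGFB1 was at 11.4 ± 1.85 CPM in UWB1.289 and at 1.23 ± 0.604 CPM in OVCAR3 (SD, n = 4), a log2 fold change of 3.13 (SE 0.284, adjusted p = 2.43e-12). TGFB2 went the other way, at 8.78 ± 2.67 and 28.1 ± 2.21 CPM, with -1.68 (SE 0.161, adjusted p = 9.43e-12). TGFBR2 was higher in UWB1.289, at 44.1 ± 7.31 against 18.4 ± 3.31 CPM (log2 fold change 1.23, SE 0.133, adjusted p = 2.47e-10). TGFBR1 was lower, at 5.29 ± 0.406 against 14.9 ± 1.32 CPM (log2 fold change -1.52, SE 0.182, adjusted p = 2.28e-09). Olaparib did not bring any of these 4 genes in one line into the range of the other line.

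The targets PMEPA1 and TGFBI had the widest gap between the lines among the 10 genes. PMEPA1 stood at 481 ± 28.6 CPM in UWB1.289 and 13.2 ± 2.21 CPM in OVCAR3 (log2 fold change 5.16, SE 0.0961, adjusted p = 9.4e-33). TGFBI stood at 17.5 ± 4.23 and 0.391 ± 0.209 CPM (log2 fold change 5.41, SE 0.324, adjusted p = 2.23e-17), a ratio of summed counts of 45.6 with a 95% exact interval of 24.6 to 95.7. In order, the levels of both genes ran from OVCAR3 with DMSO through OVCAR3 with olaparib and UWB1.289 with DMSO to UWB1.289 with olaparib, and no neighbours in that order overlapped. The inhibitor SMAD7 went against them, at 1.86 ± 0.540 CPM in UWB1.289 and 3.23 ± 0.610 CPM in OVCAR3 (log2 fold change -0.82, SE 0.341, adjusted p = 0.0295). Without UWB1.289 DMSO replicate 1 this difference was -0.61 and did not pass (adjusted p = 0.117).

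The remaining differences between the untreated lines were small. SMAD3 differed by 0.44 on the log2 scale (SE 0.0958, adjusted p = 8.73e-05), SKIL by 0.24 (SE 0.0880, adjusted p = 0.0143) and SMAD2 by -0.36 (SE 0.101, adjusted p = 0.00181). For SMAD3 the order was OVCAR3 with DMSO, UWB1.289 with DMSO, OVCAR3 with olaparib and UWB1.289 with olaparib. The olaparib groups of both lines overlapped, at 93.3 to 108.6 and 98.4 to 110.8 CPM, while the DMSO groups did not, at 40.8 to 57.1 and 65.1 to 70.3 CPM. SMAD2 in OVCAR3 with olaparib, at 31.5 to 36.0 CPM, overlapped both UWB1.289 groups.

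Some exons are shared with neighbouring genes in GENCODE release 44, and whether reads were counted by strand is not given in the sources used here. TGFB1 shares 215 exon bases with HNRNPUL1 on the opposite strand, a gene with 20152 counts over the 16 libraries. PMEPA1 shares 343 with the antisense RNA NKILA (508 counts), TGFB2 shares 701 with TGFB2-AS1 (46 counts) and 1371 on its own strand with TGFB2-OT1 (0 counts), and SMAD3 shares 182 with an unnamed antisense RNA. The counts of TGFB1 in both lines, low in OVCAR3, and the TGFB1 changes and differences drawn from them are uncertain for that reason.

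A wider list of 47 pathway genes sorted by role was read in the same fits. Like the 10 genes, it was chosen with earlier results of these data known. Its counts beside the shares over all genes are therefore no independent test. In OVCAR3, 40 of the 47 were tested, 17 passed upward and 3 downward, and 6 were called, all upward, where 15.5%, 16% and 5.23% of all genes did. In UWB1.289, 40 were tested, 14 passed upward and 1 downward, and 4 were called, all upward, where 7.91%, 6.17% and 2.20% of all genes did. Among the target genes 10 of 13 tested passed upward in OVCAR3 and 10 of 14 in UWB1.289, with 0 downward in each line. The shares over all genes are the same 15.5% and 7.91%. Of these target genes 6 passed upward in both lines, for which no share over all genes is given. The median log2 fold change of the list was 0.15 in OVCAR3 and 0.15 in UWB1.289, beside -0.01 and -0.004 over all genes. Of the ligands and latent complex 6 genes were tested in OVCAR3 and 4 in UWB1.289, and 0 passed upward in either line. Of the signal carriers 4 were tested in each line, and 0 passed in either direction. Of all genes 31.6% and 14.1% passed in either direction. With so few genes tested, a count of 0 is not set apart from the shares over all genes. SMAD2 and SMAD3 are counted among the 10 genes and not here.

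THBS1, thrombospondin, which releases TGF-beta from its latent complex, was called in both lines. It ranged from 4.05 to 7.12 CPM with DMSO and from 23.1 to 30.3 CPM with olaparib in OVCAR3, a log2 fold change of 2.26 (SE 0.169, adjusted p = 8.53e-11). In UWB1.289 it ranged from 42.5 to 63.8 and from 96.8 to 128.5 CPM (log2 fold change 1.07, SE 0.117, adjusted p = 5.1e-07). The groups were apart in both lines, and the rise was smaller in UWB1.289 (difference -1.19, adjusted p = 0.000122). LTBP1, which holds the latent ligand in the matrix, fell in OVCAR3, with a log2 fold change of -0.84 (adjusted p = 4.18e-07). The others that fell there were TGFBR3 (-0.76) and TGIF2 (-0.52), and SKI fell in UWB1.289 (-0.29, adjusted p = 0.0806) but rose in OVCAR3 (0.43, adjusted p = 0.000592). These 3 genes were picked after their values were seen.

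The co-receptor gene ENG, endoglin, rose in OVCAR3, with 0.854 to 1.94 CPM in the DMSO libraries and 2.97 to 4.78 CPM in the olaparib libraries, without overlap (log2 fold change 1.34, SE 0.352, adjusted p = 0.00567). In UWB1.289 its log2 fold change was 0.08 with an interval of -0.35 to 0.51, and the difference of -1.26 passed (adjusted p = 0.0408) except without OVCAR3 DMSO replicate 4 (adjusted p = 0.116). BAMBI, a pseudoreceptor without a kinase, was called in UWB1.289, where it had 6 to 14 counts with DMSO and 13 to 26 with olaparib (log2 fold change 1.32, SE 0.369, adjusted p = 0.0219). Without UWB1.289 olaparib replicate 3 its adjusted p was 0.104. In OVCAR3 BAMBI was not tested, with 2 to 8 and 8 to 18 counts. The BAMBI difference between the lines was -0.05 on the log2 scale and passed in no setting (lowest adjusted p = 0.795). A response particular to UWB1.289 was thus not shown. The inhibitory SMAD6 rose in OVCAR3 (log2 fold change 0.72, adjusted p = 1.47e-05) and had an interval of -0.33 to 0.57 in UWB1.289.

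Of the target genes, CDKN1A, the cyclin-dependent kinase inhibitor p21 that p53 and TGF-beta both control, was called in both lines. It ranged from 5.73 to 7.99 and 17.6 to 21.8 CPM in OVCAR3 (log2 fold change 1.44, SE 0.166, adjusted p = 2.23e-07) and from 2.53 to 4.80 and 5.17 to 9.42 CPM in UWB1.289 (1.07, SE 0.262, adjusted p = 0.00872). CDKN2B, the inhibitor p15, rose by 1.28 in OVCAR3 (adjusted p = 6.11e-07) and by 0.81 in UWB1.289 (adjusted p = 0.00624) on the log2 scale.

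FN1, the matrix protein fibronectin, showed the widest difference of response on the log2 scale in the wider list. In OVCAR3 it ranged from 7.44 to 11.1 CPM with DMSO and from 48.4 to 73.3 CPM with olaparib (log2 fold change 2.57, SE 0.148, adjusted p = 1.81e-12). In UWB1.289 it was already at 1551 to 1851 CPM with DMSO and was at 1829 to 2023 CPM with olaparib. The interval of the log2 fold change was 0.03 to 0.35 (adjusted p = 0.123, 0.0416 with the replicate number as a block and 0.0924 with DESeq2). The difference was -2.37 (SE 0.156, adjusted p = 4.49e-12). SNAI1, a transcription factor of epithelial plasticity, rose in OVCAR3 with overlapping groups of 2 to 18 and 14 to 60 counts (log2 fold change 2.17, SE 0.629, adjusted p = 0.0354). Without OVCAR3 DMSO replicate 1 its adjusted p was 0.107. In UWB1.289 SNAI1 was not tested, with 6 to 11 counts with DMSO and 8 to 24 with olaparib. Its difference between the lines of -1.04 passed in no setting (lowest adjusted p = 0.155).

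**Figure D3:**
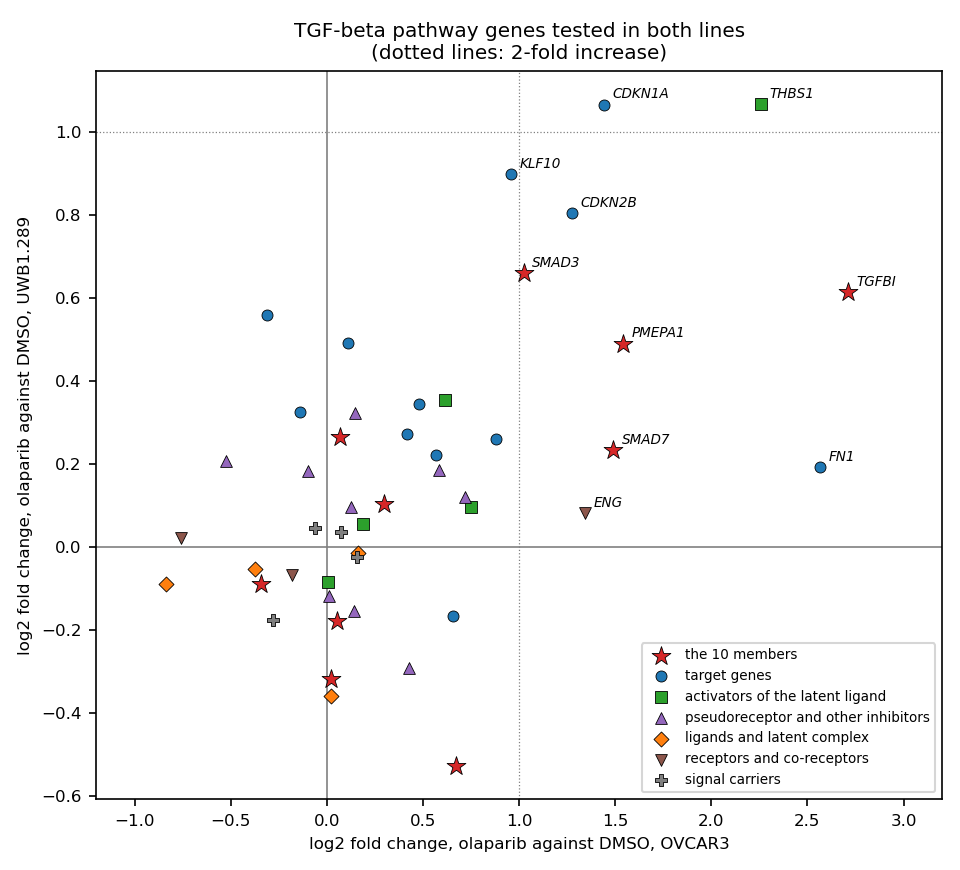
Log2 fold change with olaparib in OVCAR3 (horizontal axis) and UWB1.289 (vertical axis) for the 47 genes tested in both lines, the 10 genes as stars and 37 of the wider list by role, with dotted lines at a 2-fold increase. Of the 47 genes, 25 lie above 0 in both lines, and THBS1 and CDKN1A lie beyond 2-fold in both. The share of all genes above 0 in both lines is not given.

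Between the untreated lines, 41 genes of the wider list were tested, 18 passed the test as higher in UWB1.289 and 14 as lower, and 17 were called, 11 of them higher. Of all genes tested, 39.8% passed as higher, 40.1% as lower and 38.4% were called, so the list stood near the background. Among the called genes, FN1 (log2 fold change 7.40, SE 0.1004) and TAGLN (6.67, SE 0.141) stood furthest above OVCAR3. TAGLN encodes the actin-binding protein transgelin. LTBP1 (-2.93, SE 0.111), COL1A1 (-2.68, SE 0.180) and SMAD6 (-1.98, SE 0.148) stood furthest below it. For the difference of the olaparib response, 43 genes were tested, 3 passed with a higher change in UWB1.289 (5.12% of all genes did) and 7 with a lower one (6.06%). FN1, ENG and THBS1 were the 3 called, against 3.64% of all genes.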

How the data were processed

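The authors sequenced QuantSeq 3′ mRNA libraries, removed adapters and low-quality bases with BBDuk, and mapped reads to hg38 by STAR 2.7.9a (2-pass). Reads were assigned to GENCODE 38 genes by featureCounts 2.0.0. The deposited values are raw counts. All 16 libraries were used, grouped by the labelled line and treatment, and no pair of replicates was identical. The quasi-likelihood test of edgeR 4.0.16 (R 4.3.3) was applied after filterByExpr and TMM scaling, with p-values adjusted by Benjamini-Hochberg over all genes tested, in each line alone, on the DMSO libraries and, for the interaction, on all libraries. SEs were derived from the fold change and F statistic. DESeq2 1.42.0, other scalings, filters, thresholds and left-out libraries were alternatives. The fits were tested on simulated data, with planted changes beyond 2-fold in genes of higher count only. Smaller changes and genes near 10 counts were not covered by that test. Genes of the wider list were named when called, and between the lines the 3 called genes changed most in each direction. A gene that the rule names is not reported here. The members and lists were chosen with earlier results of these data known. Coordinates are from GENCODE 44. Same-numbered UWB1.289 libraries deviated together (correlations 0.133 to 0.224 over 9536 genes with an average count above 50), so their numbers may pair the samples. The values given come from fits without pairing, and the paired fit was an alternative. With 5599571 to 7730228 counts per library, genes near 10 counts carry a large counting error, and intervals from summed counts cover counting error only.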

Additional observations from a re-analysis of the deposited data

Results flagged for a closer look

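SMAD7 in UWB1.289 DMSO replicate 1 lay apart from the other 3 libraries of its group, at a log2 CPM of 0.45 (7 counts) against 1.21 to 1.35. It was the 1 such value among 40 combinations of gene and group, where chance alone flags about 1 in 20. The olaparib response differed between the lines by the interaction test for PMEPA1 (-1.05, UWB1.289 minus OVCAR3, log2 scale), TGFBI (-2.09), SMAD7 (-1.26), TGFB1 (-1.19) and SMAD3 (-0.36). By same-numbered libraries, SMAD3, TGFBI and PMEPA1 were higher with olaparib in 4 of 4 pairs in each line, SMAD7 in 4 of 4 in OVCAR3 and 3 of 4 in UWB1.289, and TGFB1 in 3 of 4 in OVCAR3 and 0 of 4 in UWB1.289. Where the groups did not overlap, any matching of libraries gives 4 of 4 or 0 of 4, so those counts add no support. Whether the numbers pair the OVCAR3 samples is not settled. Dose, medium and line cannot be told apart in the differences between the lines.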

How the results depend on the processing

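With an average count above 50, all genes called fell to 285 in OVCAR3 (from 681), 140 in UWB1.289 (from 281), 3245 between the lines (from 5127) and 292 for the difference (from 519). The same limit left 2 of the 10 genes called in OVCAR3 (from 4), 2 for the difference (from 4) and 2 of the wider list in UWB1.289 (from 4), since fewer genes can qualify. At an adjusted p below 0.05, the genes of the 10 past the test were 2 for the difference (from 5), with 2 called, and 3 in UWB1.289 (from 5). DESeq2, and 1 fit to all 16 libraries, also gave 3 in UWB1.289. Leaving out 1 library gave 2 to 4 called in OVCAR3 (2 without OVCAR3 olaparib replicate 2), 3 to 5 past the test in UWB1.289, 2 to 5 of the wider list called in UWB1.289, and 2 to 5 past and 2 to 4 called for the difference. Changes near 0 turned sign in that way: TGFBR1 (-0.0456 to 0.16) and TGFBR2 (-0.0539 to 0.14) in OVCAR3, ENG (-0.0515 to 0.25) and SMAD6 (-0.000566 to 0.32) in UWB1.289, and the difference of BAMBI (-0.42 to 0.25).

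Same-numbered OVCAR3 libraries correlated by 0.0347 to 0.165 in their deviations, a range that overlaps the 0.133 to 0.224 of UWB1.289. Whether the numbers pair the OVCAR3 samples is therefore not settled. DMSO libraries across the lines correlated by -0.00377 to 0.0248, so there the samples share only a number. With the replicate number as a block, the genes past the test in UWB1.289 rose from 1795 to 2397. With the block the TGFB1 difference no longer passed the test (adjusted p = 0.103), and no other result of the 10 genes crossed the threshold. The SMAD6 difference (adjusted p = 0.0867) and FN1 in UWB1.289 (adjusted p = 0.0416) now passed. Both also passed with DESeq2 (adjusted p = 0.0774 and 0.0924). The SMAD6 difference passed in 9 of 23 alternatives and FN1 in 3 of 16, these settings included.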
